A study of Mus musculus with 36 samples.

Results

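The Hox genes are the homeobox transcription factors that lie in 4 clusters, HoxA to HoxD, and that give cells a record of their place along the body axis. The 39 mouse genes named Hox with a cluster letter and a number were taken from the 45232 genes of the count tables by symbol alone, and all 39 are counted here. RNA sequencing measured them in organoids, 3-dimensional epithelial cultures grown here from primary mouse prostate, that carried a doxycycline-inducible pCW construct. The construct was empty (genotype "empty vehicle", EV) or expressed FOXA1, either wild type (WT) or changed by R219S or FE255del, made as a FOXA1-2A-DsRED fusion. Each construct was sampled on days 0, 1 and 11, with 3 libraries in each of 12 groups and 36 in all. Doxycycline was used at 500 ng/mL, and the days 1 and 11 libraries are taken as induced; the names of the deposited tables mark day 0 as without doxycycline, which the sample labels do not state. All 4 constructs, EV included, share the pCW vector, the sort for DsRED and the culture. Sorted cells of each construct were seeded in triplicate, so the 3 libraries of a group are cultures from 1 infected population, and p-values measure the spread between such cultures.

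FOXA1 is a forkhead pioneer factor that opens chromatin and is active in prostate epithelium. Hox genes of low number are used in anterior and those of high number in posterior tissues, following their order along each cluster, and genes with the same number in different clusters are paralogs. The prostate buds from the urogenital sinus, where genes of groups 10 to 13 are active: Hoxa13, Hoxb13 and Hoxd13 are needed for normal lobes and Hoxa10 and Hoxa11 pattern the male tract. Polycomb complexes keep Hox genes silent, Trithorax complexes keep them active, retinoic acid switches on the low-numbered ones, and PBX, MEIS and PKNOX proteins bind DNA beside HOX proteins.

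Libraries held 61476938 to 102385337 counts, and levels are given as CPM (counts relative to the total of the library) after TMM scaling, a correction for library composition. Foxa1, counted on the mouse gene, served as the check of the labels. It stood at 229 to 257 CPM in the 4 constructs on day 0. On day 1 it was at 227 ± 4.99 CPM in EV and 414 ± 4.69, 320.2 ± 27.1 and 309 ± 5.11 CPM (SD, n = 3) in WT, FE255del and R219S. On day 11 it was at 230.2 to 295 CPM, a range that overlaps that of day 0, so the check rests on day 1. Whether the construct's own transcripts were counted on mouse Foxa1 was not tested. Prostate epithelial markers were present in each group (12 of 13 with counts, Krt5, Krt8 and Epcam among them), and Pbsn was at 0. On day 0 their summed level was 11403 to 11665 CPM in EV and 11483 to 11978 in R219S. It was then already lower in WT, at 9648.5 to 10313, and in FE255del, at 9651.5 to 10013. Their sum on day 1 was 11342 to 12199 CPM in EV, 6610.0 to 6845 in WT, 5499 to 5594 in FE255del and 10788 to 11089 in R219S. Single markers went both ways on that day at an adjusted p under 0.05 (edgeR test). Of 12 tested, 4 were higher and 7 lower than EV in WT and in FE255del, and 3 and 8 in R219S. That is 91.7% in each, against 60.5%, 53.2% and 48.5% of all genes. Seminal vesicle markers, which would mark a neighbouring organ, were at or near 0 throughout. Some libraries stood apart from their group over all genes: WT day 1 replicate 2, R219S day 0 replicate 2, and on day 11 EV replicate 1, WT replicate 3, FE255del replicate 1 and R219S replicate 2. A chi-square per gene between each of these and the other 2 libraries of its group was 26.5 to 69.2, against 6.49 to 24.4 between those 2.

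Organoids expressed 3 of the 4 clusters. HoxA gave 44.2% of all Hox counts, HoxB 24.0% and HoxD 31.8%, while the 9 HoxC genes together gave 40 counts over 36 libraries and 6 of them, Hoxc8 to Hoxc13, gave none. Of the 39 genes, 27 had enough counts to be tested: all 11 of HoxA, 9 of 10 of HoxB, 7 of 9 of HoxD and none of HoxC. Hoxd1 had no count, and Hoxb1 and Hoxd12 had 8 and 31. With no count, a group of 3 libraries still allows a level of up to 0.0126 to 0.0147 CPM (3 counts over the group, counting error only).

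Levels were higher at the posterior than at the anterior end of HoxA and HoxD, and in HoxB at Hoxb13. Scaled by exon length, Hoxd13 was highest, at 60.8 CPM per kb over the 36 libraries, followed by Hoxb13 at 31.4, Hoxa10 at 26.2, Hoxa11 at 15.8, Hoxa13 at 15.6, Hoxa9 at 14.2 and Hoxb7 at 13.2. At the anterior end, Hoxa2 stood at 0.699, Hoxb2 at 0.0863 and Hoxd3 at 0.0129 CPM per kb. The order within a cluster was not strictly that of position: Hoxb8 lay below both neighbours Hoxb7 and Hoxb9 (8.81), and Hoxd12 (0.00465) lay far below both Hoxd11 (2.90) and Hoxd13. The mean reached 1 CPM for 23 genes, 10 in HoxA, 8 in HoxB and 5 in HoxD, and 22 of them are described one by one. The other 4 tested genes, Hoxa4, Hoxb2, Hoxd3 and Hoxd4, had means of 0.686, 0.301, 0.0542 and 0.471 CPM.

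**Figure D1:**
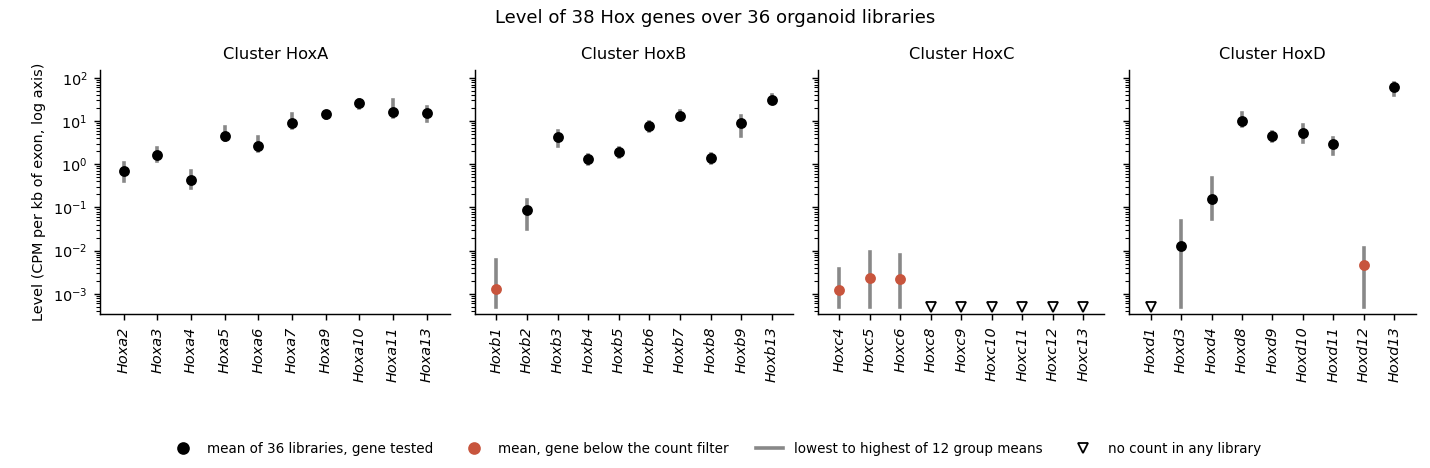
Level of 38 Hox genes, in CPM per kb of exon on a log axis, in paralog order within each cluster. Points are means of 36 libraries, bars run from the lowest to the highest of 12 group means and are cut at the axis where a group is at 0, and open triangles mark genes without a count. HoxC is near or at 0 throughout, and Hoxd13 is the highest gene at 60.8 CPM per kb.

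On mm10 (GENCODE M21 annotation), HoxA lies on chromosome 6 from 52155590 to 52260880, HoxB on chromosome 11 from 96194316 to 96368256, HoxC on chromosome 15 from 102921103 to 103036852 and HoxD on chromosome 2 from 74668310 to 74765142. The 250 bases before the start are printed for Hoxa11, Hoxd8 and Hoxa7, the 3 with the lowest adjusted p of the 12 Hox genes higher in WT on day 1, and for Hoxd13, which had the lowest of the 2 lower ones, from RefSeq (GRCm38.p6), 5′ to 3′ on the gene's strand. Capitals mark TGTTT or its reverse complement AAACA, the core of the forkhead motif.
Hoxa11, chr6:52245811-52246060, minus strand: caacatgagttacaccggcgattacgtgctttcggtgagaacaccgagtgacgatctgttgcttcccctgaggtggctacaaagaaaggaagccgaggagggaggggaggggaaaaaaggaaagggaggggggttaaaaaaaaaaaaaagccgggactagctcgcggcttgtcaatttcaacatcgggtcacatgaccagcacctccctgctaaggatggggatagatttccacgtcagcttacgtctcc
Hoxa7, chr6:52218574-52218823, minus strand: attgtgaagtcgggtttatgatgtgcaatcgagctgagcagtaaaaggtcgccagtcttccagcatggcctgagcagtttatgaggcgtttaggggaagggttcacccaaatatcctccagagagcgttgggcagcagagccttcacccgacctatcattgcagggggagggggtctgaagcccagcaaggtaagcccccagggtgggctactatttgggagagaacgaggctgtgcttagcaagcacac
Hoxd8, chr2:74704365-74704614, plus strand: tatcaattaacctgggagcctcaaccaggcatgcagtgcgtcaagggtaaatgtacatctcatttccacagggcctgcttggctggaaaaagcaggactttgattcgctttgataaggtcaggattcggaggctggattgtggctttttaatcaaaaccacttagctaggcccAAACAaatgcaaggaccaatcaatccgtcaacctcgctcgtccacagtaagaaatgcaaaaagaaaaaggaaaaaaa
Hoxd13, chr2:74667975-74668224, plus strand: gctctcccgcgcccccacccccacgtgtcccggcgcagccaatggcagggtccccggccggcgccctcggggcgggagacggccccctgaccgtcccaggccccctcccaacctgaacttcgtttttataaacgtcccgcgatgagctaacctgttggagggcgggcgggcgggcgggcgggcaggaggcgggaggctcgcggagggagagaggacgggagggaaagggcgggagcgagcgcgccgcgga
The Hoxa7 window precedes the RefSeq start, but it lies inside the gene as GENCODE M21 draws it (52214491 to 52221854 on the minus strand), the model used here for lengths and overlaps. The core stood once in the Hoxd8 window and not in the other 3. Searched on both strands, it stood in 12 of 24 Hox windows (22 genes had a window) and in 46.4% of 32851 windows of all genes. The full motif TGTTTAC, which holds the core, stood in 3.17% of all windows and in no Hox window. Its relative TGTTTGC, which also holds the core, stood in 4.3% of all windows and in that of Hoxa2. The variant TATTTAC stood in 2.73% and again in that of Hoxa2, and TATTTGC in 2.5% and in that of Hoxd3. The Hoxd13 window was 74.4% G and C with 31 CpG, against medians of 52.4% and 6 over all windows. A match is a description of letters only, and binding was not measured here.

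One day after the start, WT FOXA1 organoids had higher levels of most HoxA genes and of Hoxd8, and lower Hoxd13, than EV organoids. Of the 27 tested genes, 14 differed at an adjusted p under 0.05 (edgeR quasi-likelihood test, Benjamini-Hochberg adjusted over 18176 genes), 12 higher and 2 lower. Over all genes, 60.5% were called (29.6% higher), so the count of Hox genes called was not above the background, while their median log2 fold change was 0.37 against -0.013 for all genes. By cluster, the calls were 8 higher of 11 in HoxA (median 0.70), 1 higher of 9 in HoxB (median 0.074), and 3 higher and 2 lower of 7 in HoxD. Scaling by total counts, which shifts the median of all genes by 0.12, gave 17 Hox calls, 16 higher and 1 lower, and raised the share of higher calls over all genes from 49.0% to 60.8%. Without WT day 1 replicate 2, 15 were called, 13 of the 14 among them.

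Hoxa11, which patterns kidney, uterus and male tract, showed the highest fold of the genes above 1 CPM. It stood at 26.3, 28.8 and 31.6 CPM in the 3 EV libraries and 68.0, 72.1 and 66.8 CPM in the 3 WT libraries of day 1. Every WT library was more than 2 times every EV library, and the log2 fold change was 1.25 ± 0.058 (SE, adjusted p = 1.4e-19). Since day 0, Hoxa11 had changed by 1.38 ± 0.081 more in WT than in EV on the log2 scale (adjusted p = 6.2e-16). In the annotation 35% of its exon bases overlap Hoxa11os, a transcript of the other strand, and the strand setting of the counting is not given in the sources used here, so part of its counts could be the partner's. Hoxa11os itself differed from EV by 0.19 ± 0.061 in WT (adjusted p = 0.0066), -0.45 ± 0.062 in FE255del and -0.27 ± 0.061 in R219S.

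Hoxa7, a gene of thoracic identity, stood at 22.2, 24.2 and 22.4 CPM in EV and 43.4, 39.2 and 44.1 CPM in WT, a log2 fold change of 0.88 ± 0.062 (adjusted p = 1.5e-14). The groups did not overlap, and on day 0 both had been near 22 CPM. In the annotation 20.4% of the exon bases of Hoxa7 overlap Hoxaas3, a transcript of the other strand. Hoxa5, known for its part in lung and in the neck to thorax boundary, was at 7.62, 7.72 and 6.20 CPM in EV and 15.1, 10.8 and 14.7 CPM in WT (0.92 ± 0.11, adjusted p = 8.6e-09). Replicate 2 was the lowest of the 3 WT libraries for Hoxa5 but still above each EV library.

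Hoxa6, the neighbour of Hoxa5, was at 2.24, 1.83 and 1.63 CPM in EV and 4.24, 2.31 and 4.51 CPM in WT (0.96 ± 0.21, adjusted p = 0.00017). Hoxa3, needed for thymus and parathyroid, was at 8.45, 8.11 and 8.60 CPM in EV and 15.8, 11.8 and 14.5 CPM in WT (0.75 ± 0.11, adjusted p = 5.1e-07). For both genes replicate 2 was again the lowest WT library, and the EV and WT libraries did not overlap. Hoxa3 shares 27.1% of its exon bases with other transcripts, Hoxaas3 and Gm28308 among them, and Hoxa2 shares 15% with Gm28308. These genes may thus not be fully separate observations. Hoxa2, which specifies the second branchial arch, reached 0.70 ± 0.26 at under 3 CPM (adjusted p = 0.018), a call lost without WT day 1 replicate 1 (0.57, adjusted p = 0.091) and without EV day 1 replicate 2 or 3.

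Among the posterior HoxA genes, Hoxa10 and Hoxa13 had smaller folds than Hoxa11. Hoxa10 was at 82.1, 84.7 and 85.2 CPM in EV and 95.3, 93.2 and 91.5 CPM in WT (0.15 ± 0.042, adjusted p = 0.002). Hoxa13, the group 13 gene of HoxA, was at 37.7, 38.4 and 36.5 CPM in EV and 45.2, 44.6 and 43.1 CPM in WT (0.24 ± 0.053, adjusted p = 0.00019). Both groups of libraries were separate for these 2 genes, but Hoxa13 had already been higher in WT on day 0, and its change since then did not pass the test (0.095 ± 0.075, adjusted p = 0.34). Hoxa9, a gene best known from blood progenitors, was not called (-0.082 ± 0.055, adjusted p = 0.21).

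In HoxB, Hoxb3 was the one gene called in WT on day 1, at 17.0, 16.3 and 14.8 CPM in EV and 26.4, 21.9 and 26.7 CPM in WT (0.64 ± 0.11, adjusted p = 3.9e-06). It had also been higher in WT on day 0, its change since day 0 did not pass (0.32 ± 0.15, adjusted p = 0.088), and 52.9% of its exon bases overlap Hoxb3os on the other strand. Hoxb4 to Hoxb9 had log2 fold changes between -0.089 (Hoxb9) and 0.46 (Hoxb4), none of them called. The Hoxb4 libraries of WT spread from 1.99 CPM in replicate 2 to 5.24 CPM in replicate 1, and without replicate 2 Hoxb4 was called at 0.79 (adjusted p = 0.0011). Hoxb4, Hoxb5, Hoxb6 and Hoxb8 were not called against EV in any construct on any day, and their 12 group means ran from 2.59 to 4.16, 4.15 to 6.57, 11.5 to 18.4 and 2.87 to 4.43 CPM. Hoxb13 was not called in WT on day 1 (-0.086 ± 0.054, adjusted p = 0.17).

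In HoxD, Hoxd8 and Hoxd13 moved in opposite directions. Hoxd8, a trunk gene, was at 22.7, 24.1 and 22.7 CPM in EV and 40.2, 41.7 and 42.7 CPM in WT (0.84 ± 0.048, adjusted p = 3.9e-17). Hoxd13, the gene of digits, external genitalia and prostate, was at 181, 189.6 and 185 CPM in EV and 108, 108 and 109 CPM in WT (-0.77 ± 0.035, adjusted p = 1.1e-19). Neither gene's groups overlapped, both held in each alternative analysis, and their changes since day 0 beside EV were 1.05 ± 0.068 (adjusted p = 5.3e-15) and -0.54 ± 0.049 (adjusted p = 3e-11).

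The anterior HoxD pair had means under 1 CPM over the 36 libraries, and Hoxd3 was near the detection limit. Hoxd4 was at 0.451, 0.342 and 0.234 CPM in EV and 1.72, 0.736 and 1.89 CPM in WT (2.08 ± 0.43, adjusted p = 8.4e-05). Hoxd3 was at 0.0291, 0 and 0.0146 CPM in EV and 0.349, 0.129 and 0.138 CPM in WT (3.81 ± 1.07, adjusted p = 0.0027). Every WT library was above every EV library for both, but they share 52.3% and 62.8% of their exon bases with other transcripts, among them each other, so they do not count as separate observations. Hoxd9 and Hoxd10 were not called, and Hoxd11 was at -0.19 ± 0.080 (adjusted p = 0.039), a call lost under 10 of 13 alternatives, with values from -0.29 to -0.068.

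**Figure D2:**
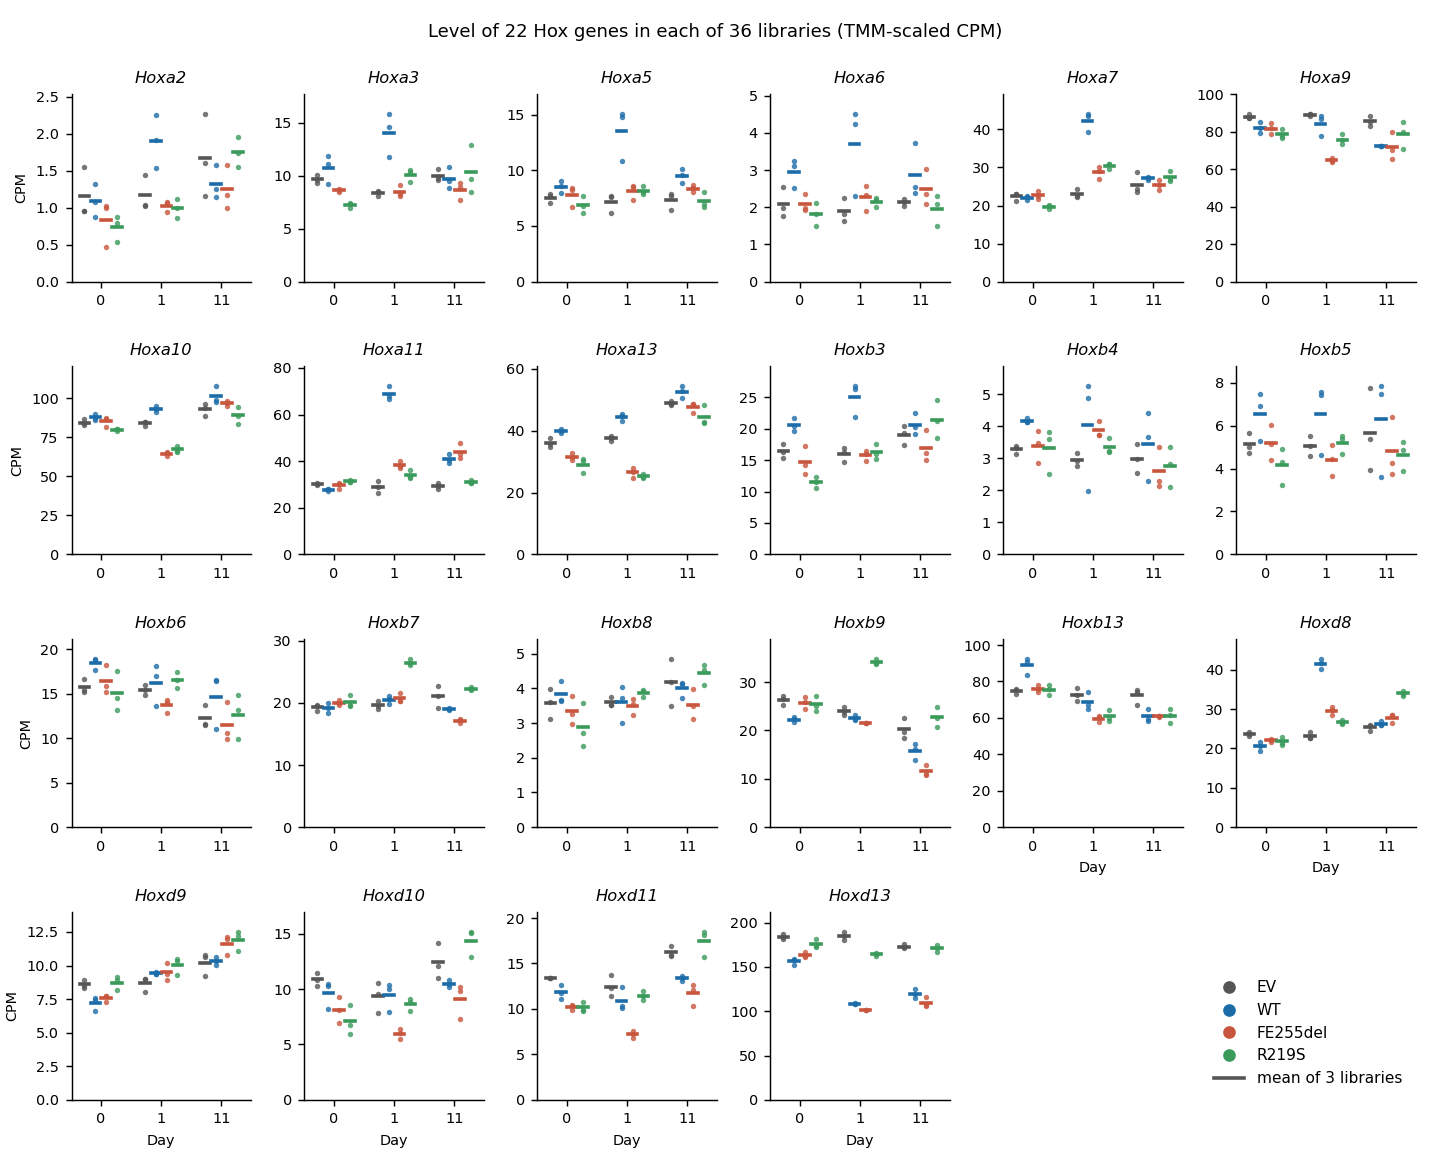
Level of 22 Hox genes whose mean reached 1 CPM, in TMM-scaled CPM, in each of the 36 libraries on days 0, 1 and 11. Points are libraries, short lines are means of 3, and colours are constructs. On day 1 the WT libraries stand above all others for Hoxa11, Hoxa7 and Hoxd8, and WT and FE255del stand below EV and R219S for Hoxd13.

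FE255del organoids on day 1 had lower Hoxd13 and Hoxd11, both called lower in WT as well. Hoxa10, Hoxa13 and Hoxd10 were also lower, while the posterior Hoxa11 was higher. Of the 27 genes, 12 differed from EV, 5 higher and 7 lower, where 53.2% of all genes were called, 25.5% higher and 27.7% lower. The lower genes were Hoxa9, Hoxa10, Hoxa13, Hoxb13, Hoxd10, Hoxd11 and Hoxd13, and the higher ones included Hoxa7, Hoxa11, Hoxd3 and Hoxd8. WT, FE255del and R219S share their EV controls, so their values against EV are set side by side and not as repeats of each other.

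Hoxd13 was at 102, 101 and 102 CPM in FE255del (-0.87 ± 0.035 against EV, adjusted p = 7.3e-21). Hoxd11, which acts in limb and kidney, was at 13.7, 11.4 and 12.3 CPM in EV and 6.79, 7.26 and 7.54 CPM in FE255del (-0.79 ± 0.083, adjusted p = 3.7e-10). Hoxd10, its neighbour, was at 10.6, 9.59 and 7.85 CPM in EV and 5.45, 6.07 and 6.39 CPM in FE255del (-0.65 ± 0.14, adjusted p = 0.0002). All 3 were separate from EV, but all 3 had been called lower on day 0 already, and the change since day 0 passed for Hoxd11 (-0.40 ± 0.12, adjusted p = 0.0051) and Hoxd13 (-0.69 ± 0.049, adjusted p = 9.7e-14) and not for Hoxd10 (-0.22 ± 0.20, adjusted p = 0.41).

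Hoxa13 was at 26.6, 24.7 and 28.1 CPM in FE255del (-0.51 ± 0.054 against EV, adjusted p = 6.3e-10). Hoxa10 was at 63.0, 65.1 and 65.3 CPM (-0.38 ± 0.042, adjusted p = 1.4e-09), and Hoxa9 at 64.5, 63.5 and 66.0 CPM against 89.5, 89.5 and 88.1 CPM in EV (-0.46 ± 0.056, adjusted p = 9.9e-09). No FE255del library reached the EV range for any of these. Hoxa13 had been called lower in FE255del on day 0 already, at 31.5 CPM against 36.1 in EV. Hoxa11 moved the other way, at 36.9, 38.1 and 40.0 CPM (0.41 ± 0.058, adjusted p = 2.4e-07). Hoxd8 was at 29.7, 28.5 and 30.7 CPM (0.36 ± 0.048, adjusted p = 7.8e-08) and Hoxa7 at 30.2, 28.9 and 27.0 CPM (0.32 ± 0.062, adjusted p = 3.8e-05). These 3 genes thus stood between EV and WT. The Hoxd3 call (adjusted p = 0.022) rested on single libraries, with replicate 2 of FE255del inside the EV range, and was lost without FE255del day 1 replicate 3 or EV day 1 replicate 2 or 3.

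R219S organoids on day 1 had higher Hoxb7 and Hoxb9 than EV, and Hoxd13 close to EV. Hoxa13 and Hoxa10 were lower than in EV, as they were in FE255del. R219S and FE255del were not tested against each other. Of the 27 genes, 13 differed from EV, 8 higher and 5 lower, against 48.5% of all genes (23.2% higher and 25.3% lower). Hoxb9, expressed in trunk and mammary epithelium, was at 24.9, 23.9 and 23.1 CPM in EV and 33.9, 33.7 and 34.8 CPM in R219S (0.51 ± 0.073, adjusted p = 2.9e-07). Hoxb7, its near neighbour, was at 19.5, 20.3 and 19.0 CPM in EV and 26.1, 27.1 and 26.4 CPM in R219S (0.43 ± 0.052, adjusted p = 7.9e-09). Neither gene's R219S libraries overlapped any other group of day 1, while Hoxb8 between them was not called (0.11 ± 0.14, adjusted p = 0.56).

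Hoxa13 was at 26.1, 24.6 and 25.0 CPM in R219S (-0.57 ± 0.054, adjusted p = 4.1e-11) and Hoxa10 at 66.3, 65.9 and 69.7 CPM (-0.32 ± 0.042, adjusted p = 6.8e-08). Hoxb13 was at 69.5, 72.4 and 76.4 CPM in EV, 57.5, 60.3 and 61.0 CPM in FE255del and 64.1, 60.1 and 58.1 CPM in R219S, and was lower in both (-0.29 ± 0.054, adjusted p = 2.3e-05, and -0.26 ± 0.054, adjusted p = 0.00011). Hoxd13 was at 166, 162 and 165 CPM, a small difference that still passed (-0.17 ± 0.035, adjusted p = 7.9e-05). Hoxa9 was lower as well (-0.23 ± 0.056, adjusted p = 0.00064). Both Hoxa9 and Hoxa13 had been called lower in R219S on day 0, at 78.5 and 29.1 CPM against 87.9 and 36.1 CPM in EV. Hoxa7 (0.41 ± 0.062), Hoxa11 (0.23 ± 0.058) and Hoxd8 (0.20 ± 0.048) were higher than in EV, with adjusted p of 9.5e-07, 0.001 and 0.00059. Hoxa3 and Hoxd9 were also called (0.27 ± 0.11 and 0.21 ± 0.076), but leaving out any 1 of 5 of the 6 libraries (not R219S replicate 1) ended the first call, and leaving out EV replicate 1, R219S replicate 1 or R219S replicate 3 of day 1 ended the second.

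**Figure D3:**
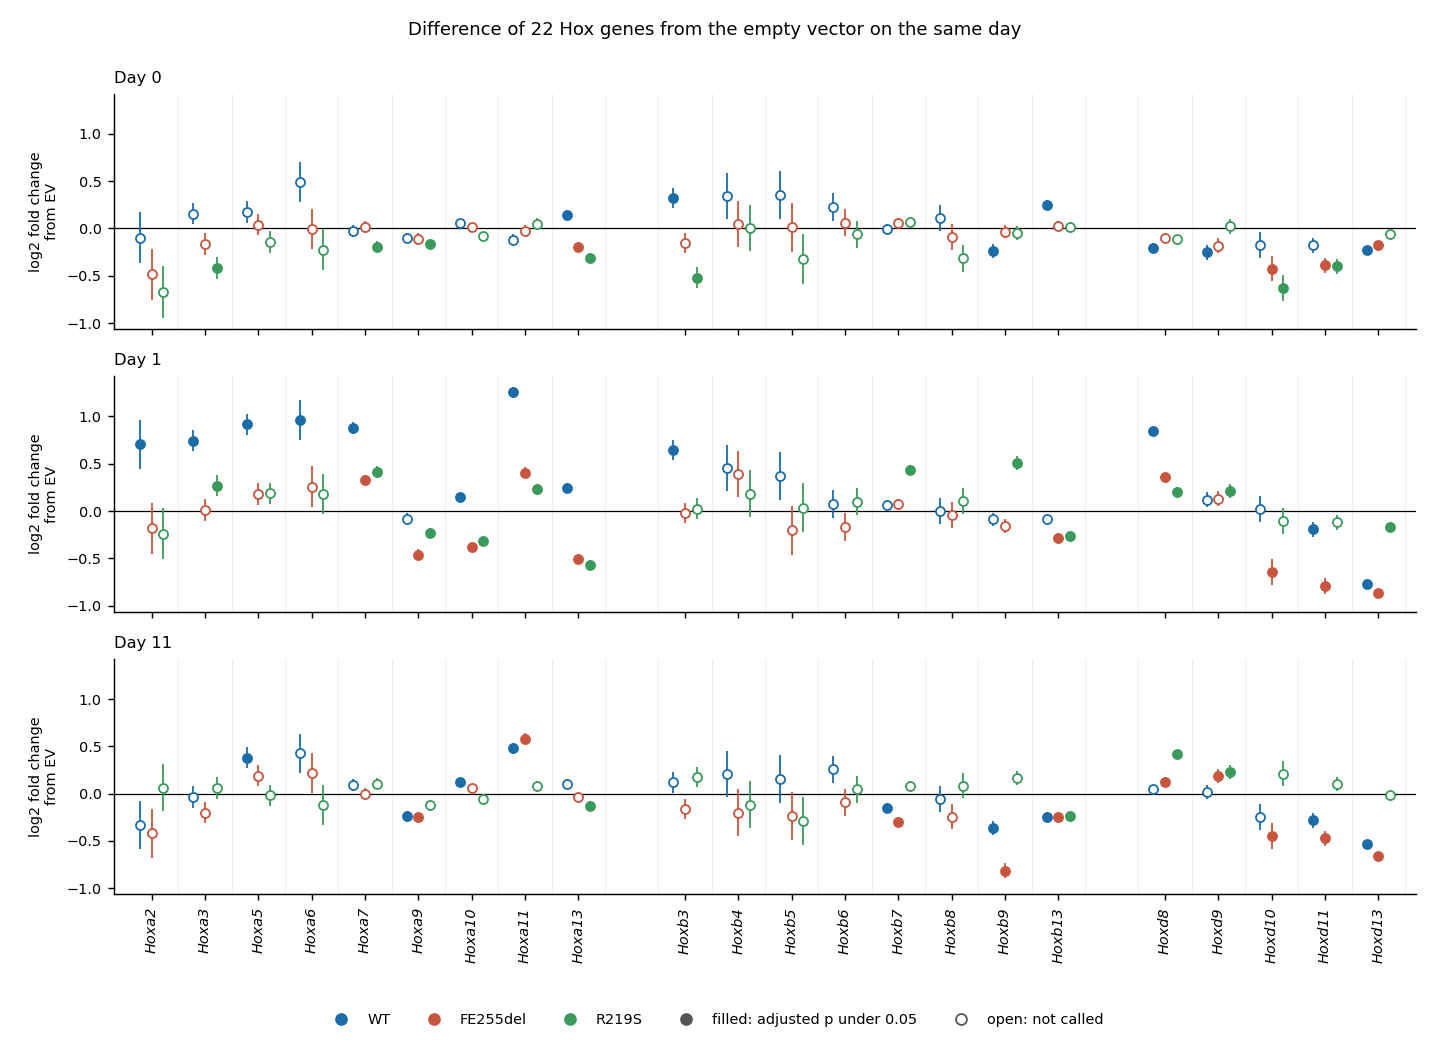
Log2 fold change from the EV of the same day for 22 Hox genes, in paralog order within HoxA, HoxB and HoxD, on days 0, 1 and 11. Points are fitted values of WT, FE255del and R219S, bars are standard errors (hidden by the point where small), and filled points passed an adjusted p of 0.05. On day 1 WT lies above EV from Hoxa2 to Hoxa7 and at Hoxa11, and Hoxd13 lies at -0.77 in WT, -0.87 in FE255del and -0.17 in R219S.

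FE255del and R219S were also compared with WT directly. Against WT on day 1, FE255del was lower for 16 of 27 genes and higher for none, where 41.7% of all genes were called and 19.9% were called lower, with a median of -0.56 for Hox genes against -0.0011 for all genes. The 16 held 9 of 11 HoxA genes, Hoxb3 and Hoxb13, and 5 of 7 in HoxD. The differences were -0.85 ± 0.057 for Hoxa11 (adjusted p = 2.5e-14), -0.74 ± 0.054 for Hoxa13 (adjusted p = 1.7e-13), -0.53 ± 0.042 for Hoxa10 (adjusted p = 1.5e-12) and -0.49 ± 0.047 for Hoxd8 (adjusted p = 1.8e-10). Hoxd13 differed least among the called genes (-0.097 ± 0.035, adjusted p = 0.025), a call that ended without WT day 1 replicate 3, without FE255del day 1 replicate 2 or with no filter on low counts. On day 0 FE255del had already been called lower than WT at 5 of 27 genes and higher at 1. Hoxa13 was then at 31.5 against 39.9 CPM in WT, Hoxb3 at 14.8 against 20.5 and Hoxb13 at 76.0 against 88.8. Hoxa11 (29.7 against 27.8) and Hoxd8 (22.0 against 20.5) were not lower in FE255del on day 0. The change since day 0 was not tested between these constructs.

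R219S was lower than WT on day 1 for 13 genes and higher for 3, against 59.6% of all genes called (30.5% higher, 29.1% lower). The 3 higher genes were Hoxd13 (0.60 ± 0.035, adjusted p = 1.3e-16), Hoxb9 (0.60 ± 0.072, adjusted p = 8e-09) and Hoxb7 (0.37 ± 0.051, adjusted p = 1.2e-07). The largest of the 13 differences above 1 CPM were at Hoxa11 (-1.02 ± 0.057, adjusted p = 3.5e-17), Hoxa2 (-0.94 ± 0.26, adjusted p = 0.0021) and Hoxa13 (-0.81 ± 0.054, adjusted p = 3.6e-15). On day 0 R219S had already differed from WT at 17 of 27 genes, 4 higher and 13 lower. Hoxa13 was then lower in R219S (29.1 against 39.9 CPM) and Hoxa11 higher (31.4 against 27.8 CPM). On day 1 the summed levels of other cell types' markers were also higher in WT than in EV. Leukocyte markers summed to 56.6 to 73.7 CPM in WT and 45.3 to 53.1 in FE255del against 4.72 to 4.99 in EV and 2.09 to 2.42 in R219S. Most of that sum was Csf1r, while Ptprc, the defining leukocyte gene, was at 0.18 CPM or less in every day 1 group. Urothelial markers summed to 132 to 143 CPM in WT and 78.9 to 89.0 in FE255del against 6.07 to 6.90 in EV, and stromal markers to 33.9 to 36.5 CPM in WT and 40.5 to 48.3 in R219S against 6.19 to 7.63 in EV, with Col1a2 at 0. Single markers went both ways. Called higher in WT were 2 of 4 tested leukocyte, 3 of 5 urothelial and 3 of 8 stromal markers. Called lower were 1, 1 and 3. That is 75%, 80% and 75% called, against 60.5% of all genes. In R219S 3 of the 8 stromal markers were called higher and 1 lower (50% called, against 48.5%). The part of these markers in the Hox differences was not tested, and in bulk RNA fewer cells of a type and less RNA per cell cannot be told apart.

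Some differences between constructs existed on day 0. WT differed from EV at 7 of 27 genes (22.7% of all genes, 9.9% higher and 12.8% lower). FE255del differed at 4, all lower (20.8%, with 9.72% lower), and R219S at 7, all lower (20.1%, with 6.92% lower). WT was higher for Hoxb13 (0.25 ± 0.053, adjusted p = 0.00054), Hoxb3 (0.32 ± 0.11) and Hoxa13 (0.14 ± 0.053), and lower for Hoxd13 (-0.23 ± 0.035, adjusted p = 3.5e-06), Hoxd8 (-0.21 ± 0.048), Hoxd9 (-0.25 ± 0.077) and Hoxb9 (-0.24 ± 0.073). FE255del was lower for Hoxa13, Hoxd10, Hoxd11 and Hoxd13, between -0.17 and -0.42. R219S was lower for Hoxa3, Hoxa7, Hoxa9, Hoxa13, Hoxb3, Hoxd10 and Hoxd11, with -0.52 ± 0.11 for Hoxb3 (adjusted p = 0.00098) and -0.63 ± 0.14 for Hoxd10 (adjusted p = 0.0014).

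These day 0 counts rested on few libraries. Without EV day 0 replicate 1 the WT count fell to 3, and without WT day 0 replicate 1 to 4; without EV day 0 replicate 2 or FE255del day 0 replicate 2 the FE255del count fell to 2. The WT calls of Hoxa13, Hoxb3, Hoxb9 and Hoxd9 all ended without EV day 0 replicate 1, and the R219S calls of Hoxa7 and Hoxa9 without EV day 0 replicate 1 or 2 or R219S day 0 replicate 2 or 3. Between constructs, FE255del differed from WT at 6 genes on day 0 (1 higher, 5 lower; 26.8% of all genes), and at 3 without WT day 0 replicate 1 or 2 or FE255del day 0 replicate 3. R219S differed from WT at 17 (4 higher, 13 lower; 39.8%), and at 9 without WT or R219S day 0 replicate 2. Hoxb3 was lowest in R219S, at 12.3, 10.6 and 11.5 CPM against 20.4, 21.6 and 19.6 CPM in WT (-0.85 ± 0.11, adjusted p = 2.3e-07), and Hoxa13 stood at 26.3, 30.7 and 30.1 against 40.6, 39.8 and 39.3 CPM (-0.46 ± 0.054, adjusted p = 2.5e-08).

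Set against each construct's own day 0 and the change in EV, 9 of 27 genes had changed in WT by day 1 (7 up, 2 down; 44% of all genes), 12 in FE255del (6 up, 6 down; 40.2%) and 13 in R219S (10 up, 3 down; 39.4%). Hoxa7, Hoxd4 and Hoxd8 rose and Hoxb13 fell in each of the 3, with changes of Hoxb13 of -0.33 ± 0.076 (WT, adjusted p = 0.0004), -0.31 ± 0.076 (FE255del, adjusted p = 0.0011) and -0.27 ± 0.076 (R219S, adjusted p = 0.0038). Some of these started apart from EV on day 0. Hoxb13 in WT was then at 88.8 against 74.8 CPM in EV, and it was not called against EV on day 1. Hoxd4 in FE255del and R219S was at 0.160 and 0.165 against 0.357 CPM, and neither was called against EV on day 1. Hoxd8 in WT and Hoxa7 in R219S had been called lower than in EV on day 0. Hoxd13 fell in WT and FE255del, and its change in R219S was -0.11 ± 0.049 (adjusted p = 0.071). Hoxa10 and Hoxa13 fell in FE255del and R219S, with changes of -0.40 and -0.24 for Hoxa10 and -0.31 and -0.26 for Hoxa13.

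By day 11 few of the HoxA differences of WT were still called, and Hoxd13 was still lower in WT and FE255del. Against EV, WT differed at 10 of 27 genes (4 higher, 6 lower), where 40.6% of all genes did (21% higher, 19.7% lower). FE255del differed at 11 (4 higher, 7 lower), with a background of 42.2% (22.6% higher, 19.6% lower). R219S differed at 4 (2 higher, 2 lower), with a background of 32.1%, and at 2 without R219S day 11 replicate 3. Without EV day 11 replicate 1, which stood apart, the 3 counts were 8, 9 and 3, and without the library of WT, FE255del or R219S that did so they were 9, 10 and 4. Hoxa11 was at 30.8, 28.0 and 29.3 CPM in EV, 39.1, 40.7 and 43.2 CPM in WT and 43.0, 47.8 and 41.2 CPM in FE255del, so it was still higher in both (0.48 ± 0.057, adjusted p = 1.6e-08, and 0.58 ± 0.057, adjusted p = 2e-10). In R219S it was at 30.8, 31.7 and 30.5 CPM and not called (0.077 ± 0.058, adjusted p = 0.35).

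Hoxd13 was at 171, 173 and 175 CPM in EV, 119.8, 115 and 125 CPM in WT and 107, 106 and 116 CPM in FE255del. It was lower in WT (-0.53 ± 0.035, adjusted p = 1.2e-14) and FE255del (-0.66 ± 0.035, adjusted p = 4e-17). Hoxd13 had also been called lower in both on day 0, at 157 and 163 CPM against 184 CPM in EV. In R219S on day 11 it was at 174, 167 and 171 CPM, with 2 of 3 libraries inside the EV range and replicate 2 below it (-0.018 ± 0.035, adjusted p = 0.75). Set directly against WT, R219S was higher by 0.51 ± 0.035 (adjusted p = 1.5e-14).

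Hoxb13, the prostate gene of HoxB, was lower than EV in all 3 constructs on day 11. It stood at 74.4, 67.2 and 75.4 CPM in EV, 59.2, 58.3 and 64.9 CPM in WT, 60.8, 60.6 and 60.9 CPM in FE255del and 61.5, 57.4 and 64.8 CPM in R219S. No library of the 3 constructs reached the EV range, and the log2 fold changes were -0.25 ± 0.054 (adjusted p = 0.00024), -0.25 ± 0.054 (adjusted p = 0.00022) and -0.24 ± 0.054 (adjusted p = 0.00057). Beside this, stromal markers summed to 217 to 233 CPM in R219S against 21.6 to 39.8 in EV. They summed to 51.4 to 54.0 in WT and 17.8 to 22.6 in FE255del. Urothelial markers summed to 793 to 815 in WT and 933 to 1097 in FE255del against 7.62 to 9.90 in EV. In R219S they summed to 17.6 to 19.1. Of 8 tested stromal markers, 3 were called higher and 0 lower in WT, 1 and 4 in FE255del, and 4 and 0 in R219S. Of 5 urothelial markers the counts were 3 and 0, 3 and 0, and 1 and 3. The shares called were 37.5%, 62.5% and 50%, and 60%, 60% and 80%, against 40.6%, 42.2% and 32.1% of all genes. The part of these markers in the result was not tested.

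Hoxb9 was at 19.8, 22.5 and 18.4 CPM in EV, 16.1, 17.1 and 13.9 CPM in WT and 12.9, 10.9 and 10.7 CPM in FE255del. It was lower in WT (-0.37 ± 0.074, adjusted p = 0.00012) and lowest in FE255del (-0.81 ± 0.076, adjusted p = 5.6e-11), which also lay below WT (-0.45 ± 0.076, adjusted p = 3.6e-05). In WT it had been called lower on day 0 already, at 22.2 CPM against 26.3 in EV. Hoxb7 was lower in FE255del (-0.30 ± 0.052, adjusted p = 1.4e-05). Its call in WT (-0.15 ± 0.052, adjusted p = 0.022) ended under 7 of 13 alternatives, among them leaving out EV day 11 replicate 1 or 3 or WT day 11 replicate 1 or 3. Hoxd8 was highest in R219S, at 33.9, 34.7 and 33.5 CPM against 26.0, 25.8 and 24.5 CPM in EV (0.42 ± 0.047, adjusted p = 7.4e-09). Its small excess in FE255del (0.13 ± 0.048, adjusted p = 0.032) was lost under 5 of 13 alternatives, among them leaving out EV day 11 replicate 3 or FE255del day 11 replicate 2 or 3.

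Hoxd11 was lower in WT (-0.28 ± 0.079, adjusted p = 0.0043) and FE255del (-0.47 ± 0.080, adjusted p = 8.1e-06), and Hoxd10 in FE255del (-0.45 ± 0.14, adjusted p = 0.0073), a call lost without EV or FE255del day 11 replicate 2. Both genes had been called lower in FE255del on day 0 already. Their means were then 10.2 CPM against 13.4 in EV for Hoxd11 and 8.11 against 10.9 for Hoxd10. On day 11 Hoxa9 was lower in WT and FE255del (-0.24 ± 0.056 and -0.25 ± 0.056). Hoxa5 remained higher in WT, at 10.1, 9.58 and 8.89 CPM against 6.42, 7.90 and 7.68 CPM (0.38 ± 0.11, adjusted p = 0.0064), a call lost without EV day 11 replicate 1. Hoxa10 was slightly higher in WT (0.12 ± 0.042, adjusted p = 0.016), a call lost without WT day 11 replicate 3 or EV day 11 replicate 2. Hoxa7, Hoxa3 and Hoxb3 were not called in any construct. The low Hoxd4 was higher in WT (1.80 ± 0.48, adjusted p = 0.0025) and FE255del (1.50 ± 0.49, adjusted p = 0.012). Hoxd9 was called higher in FE255del (0.19 ± 0.075) and R219S (0.23 ± 0.075) and Hoxa13 lower in R219S (-0.14 ± 0.053), 3 calls that each ended under 5 or 6 of 13 alternatives, single libraries of both groups among them. Hoxa13 had been called lower in R219S on day 0 already, at 29.1 CPM against 36.1 in EV.

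FE255del and WT differed at 3 genes on day 11, Hoxb7, Hoxb9 and Hoxd13, each lower in FE255del (17.7% of all genes were called, 9.75% higher and 7.92% lower). The count ranged from 1 without FE255del day 11 replicate 2 to 6 without replicate 1. R219S differed from WT at 13 (7 higher, 6 lower; 48.9%, with 24.8% higher), 5 of the 7 higher genes being Hoxd8, Hoxd9, Hoxd10, Hoxd11 and Hoxd13. Hoxd8 differed by 0.37 ± 0.047 (adjusted p = 3.7e-08), Hoxb9 by 0.53 ± 0.074 (adjusted p = 2.1e-07) and Hoxa11, in the other direction, by -0.40 ± 0.057 (adjusted p = 3.2e-07). Relative to day 0 and to EV, 4 genes had changed in WT by day 11 (2 up, 2 down; 21.4% of all genes), 8 in FE255del (4 up, 4 down; 20.5%) and 7 in R219S (6 up, 1 down; 27.1%). In R219S these were Hoxa3, Hoxa7, Hoxb3, Hoxd8, Hoxd10 and Hoxd11 up, all but Hoxd8 from a lower day 0 level that passed the test against EV, and Hoxb13 down. The Hoxd10 libraries of R219S went from 8.58, 5.93 and 6.74 CPM on day 0 to 15.2, 12.9 and 15.1 CPM on day 11, and its change beside EV was 0.84 ± 0.19 (adjusted p = 0.0011).

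The EV organoids gave the change over time, doxycycline included, without a FOXA1 insert. Between day 0 and day 1 none of the 27 genes was called by edgeR or DESeq2, 1 had an unadjusted p under 0.05, and the 23 genes above 1 CPM moved by -0.22 to 0.057 (1.43% of all genes were called, 0.259% higher and 1.17% lower). Between day 0 and day 11, 12 were called (8 higher, 4 lower; 47.6% of all genes), and 7 without EV day 0 replicate 1 or 3. Hoxa13 rose from 35.8, 37.7 and 34.8 CPM to 48.6, 48.4 and 49.5 CPM (0.44 ± 0.053, adjusted p = 2.3e-08), with no overlap. Hoxb9 fell from 27.2, 26.6 and 25.2 CPM to 19.8, 22.5 and 18.4 CPM (-0.38 ± 0.073, adjusted p = 5.6e-05). Hoxd11 rose by 0.28 ± 0.080 (adjusted p = 0.0042), Hoxa10 by 0.14 ± 0.042 (adjusted p = 0.0061) and Hoxd9 by 0.25 ± 0.076 (adjusted p = 0.0071). Of the other calls, Hoxa4, Hoxa7, Hoxb2, Hoxb6, Hoxb7 and Hoxd13 were each lost without at least 2 EV libraries, taken out singly.

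**Figure D4:**
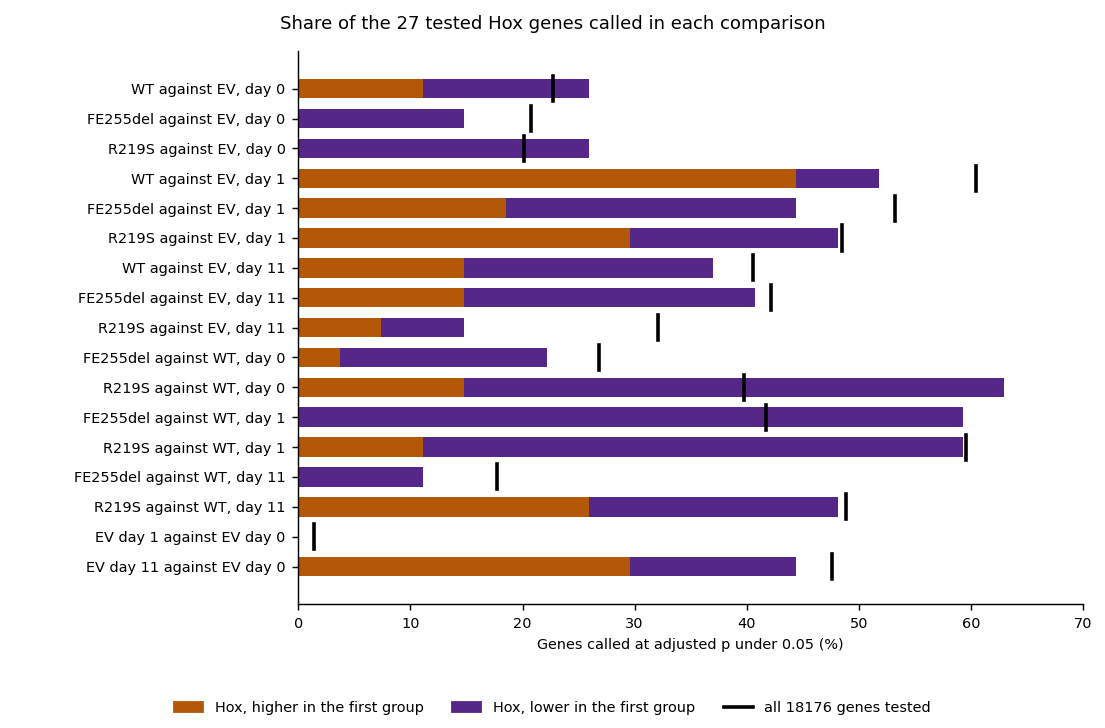
Share of the 27 tested Hox genes called at an adjusted p under 0.05 in each of 17 comparisons, split by direction in the first-named group, with the share of all 18176 genes as a black line. FE255del and R219S hold mostly lower Hox calls against WT on days 0 and 1, and most bars lie near or below the line.

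The cofactors that bind DNA with HOX proteins were called in both directions. All 9 genes of the PBX, MEIS and PKNOX families were tested, and on day 1 6 were higher and 3 lower in WT, 6 higher and 3 lower in FE255del, and 2 higher and 3 lower in R219S. These are 100%, 100% and 55.6% of the 9, where 60.5%, 53.2% and 48.5% of all genes were called. Pknox2 was at 12.6, 12.5 and 13.0 CPM in EV and 4.24, 5.40 and 5.23 CPM in WT. It was lower in WT (-1.36 ± 0.082, adjusted p = 2.6e-16), FE255del (-1.49 ± 0.083, adjusted p = 4.1e-17) and R219S (-2.06 ± 0.086, adjusted p = 2.5e-20). Meis1, which often accompanies the 5′ HoxA genes, was higher in WT (0.41 ± 0.064, adjusted p = 1.3e-06) and FE255del (0.60 ± 0.064, adjusted p = 7.2e-10) and lower in R219S (-0.69 ± 0.066, adjusted p = 6.4e-11). On day 11 Meis1 and Meis2 parted: in FE255del Meis1 was at 1.03 ± 0.064 (adjusted p = 2.5e-15) and Meis2 at -1.21 ± 0.058 (adjusted p = 2.1e-18), and in R219S Meis2 was at 0.63 ± 0.055 (adjusted p = 2.2e-11).

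Of the 30 Polycomb genes, all tested, 7 were higher and 12 lower in WT on day 1, 7 and 9 in FE255del, and 8 and 10 in R219S. The shares called were 63.3%, 53.3% and 60.0% against 60.5%, 53.2% and 48.5% of all genes, so those of WT and FE255del were near the background. The leading ones in WT were Phc2, a subunit of the first Polycomb complex, at -0.94 ± 0.042 (adjusted p = 9.7e-20), Ezh2, the H3K27 methyltransferase, at -0.76 ± 0.036 (adjusted p = 2.9e-19), Aebp2 at -0.63 ± 0.033 and Cbx6 at 0.60 ± 0.040. Ezh2 was lower in FE255del too (-0.47 ± 0.036, adjusted p = 2.1e-13) but higher in R219S (0.40 ± 0.036, adjusted p = 7.8e-12). On day 11 the counts were 10 higher and 6 lower in WT, 11 and 8 in FE255del, and 6 and 6 in R219S (53.3%, 63.3% and 40.0% called, against 40.6%, 42.2% and 32.1% of all genes). Of 13 Trithorax subunits and H3K27 demethylases, 3 were higher and 2 lower in WT on day 1, Wdr5 by -0.58 ± 0.036 (adjusted p = 6.3e-16) and Kdm6b by 0.36 ± 0.056 (adjusted p = 8.4e-07) among them. The counts were 2 and 2 in FE255del and 4 and 1 in R219S, and on day 11 they were 3 and 2 in WT, 4 and 1 in FE255del, and 0 and 3 in R219S. The shares called were 38.5%, 30.8% and 38.5% on day 1 and 38.5%, 38.5% and 23.1% on day 11, each below the share of all genes just given for that construct and day.

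Of 20 retinoic acid genes 17 were tested, and on day 1 6 were higher and 6 lower in WT, 5 and 7 in FE255del, and 1 and 10 in R219S (70.6%, 70.6% and 64.7% called, against 60.5%, 53.2% and 48.5% of all genes). Stra6, the retinol uptake receptor, was lower in WT (-2.91 ± 0.066, adjusted p = 9.6e-28), FE255del (-3.12 ± 0.067, adjusted p = 3.5e-28) and R219S (-1.91 ± 0.063, adjusted p = 4.8e-23). Aldh1a1, which makes retinoic acid, was higher in WT (3.00 ± 0.084, adjusted p = 1.5e-23) and Aldh1a3, which also does, was lower (-2.03 ± 0.14, adjusted p = 1.6e-13). On day 11 the counts were 9 higher and 5 lower in WT, 4 and 5 in FE255del, and 3 and 2 in R219S, where Stra6 was higher (0.89 ± 0.062, adjusted p = 5.9e-14). The shares called were then 82.4%, 52.9% and 29.4%, against 40.6%, 42.2% and 32.1% of all genes.

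Transcripts beside the clusters were set next to the genes. Of 19 noncoding transcripts of the clusters 17 were in the tables and 9 tested; on day 1 3 were higher and 2 lower in WT, 3 lower in FE255del and 2 lower in R219S. These shares of 55.6%, 33.3% and 22.2% lay below the 60.5%, 53.2% and 48.5% of all genes. Hottip, which is transcribed next to Hoxa13, was at 2.56, 2.70 and 2.38 CPM in EV and 4.90, 3.47 and 3.78 CPM in WT (0.67 ± 0.16, adjusted p = 0.0006), was lower in FE255del (-0.49 ± 0.17, adjusted p = 0.016), and on day 11 was higher in FE255del (0.59 ± 0.16, adjusted p = 0.0036). Hotair, of HoxC, and Haglr, of HoxD, had no count in any library. Of 24 flanking genes 21 were in the tables and 20 tested, and 5 were higher and 10 lower in WT on day 1, 2 and 11 in FE255del, and 5 and 8 in R219S, which is 75.0%, 65.0% and 65.0% called against the same shares of all genes. On day 11 the flanking counts were 3 and 7, 3 and 8, and 4 and 5 in the same order (50%, 55.0% and 45.0% called, against 40.6%, 42.2% and 32.1%).

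Evx2, the homeobox gene beyond the Hoxd13 end of HoxD, was at 8.85, 8.11 and 7.34 CPM in EV, 5.73, 5.22 and 5.44 CPM in WT and 3.20, 3.28 and 4.22 CPM in FE255del on day 1. It was lower in WT (-0.57 ± 0.10, adjusted p = 1.5e-05), FE255del (-1.18 ± 0.11, adjusted p = 1.5e-11) and R219S (-0.34 ± 0.10, adjusted p = 0.0059). On day 11 it was lower in WT (-0.68 ± 0.11, adjusted p = 2.6e-06) and FE255del (-0.96 ± 0.11, adjusted p = 4.5e-09) and not called in R219S (-0.18 ± 0.10, adjusted p = 0.2), and Hoxd13 was called in the same constructs and direction on that day. Lnpk, the next gene out, was lower in WT (-0.78 ± 0.062, adjusted p = 3.7e-13) and FE255del (-0.63 ± 0.062, adjusted p = 1.1e-10) on day 1. At the other end of HoxD, Mtx2 was at -0.18 ± 0.042 in WT (adjusted p = 0.00041) and was not called in FE255del (-0.030 ± 0.042) or R219S (-0.013 ± 0.042). Mtx2, and Evx2 outside FE255del and WT day 11, were not among the 4 leading genes of their list and were given after their values were seen.

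Of 40 homeobox and regional regulators outside the clusters 23 were tested, and on day 1 11 were higher and 4 lower in WT, 11 and 5 in FE255del, and 7 and 10 in R219S. The shares called were 65.2%, 69.6% and 73.9% against 60.5%, 53.2% and 48.5% of all genes, so that of WT was near the background. On day 11 the counts were 10 and 2, 9 and 4, and 7 and 5 in the same order (52.2%, 56.5% and 52.2% called, against 40.6%, 42.2% and 32.1%). Pitx1, a hindlimb and pituitary factor, was higher in WT (1.56 ± 0.075, adjusted p = 5.1e-19), FE255del (1.09 ± 0.075, adjusted p = 1.2e-14) and R219S (1.51 ± 0.075, adjusted p = 2.8e-18). Cdx2, the intestinal relative of the Hox genes, led on day 11. It was at 4.06, 4.35 and 4.39 CPM in EV, 10.6, 11.5 and 9.71 CPM in WT, 13.1, 13.7 and 13.6 CPM in FE255del and 0.750, 0.375 and 0.386 CPM in R219S. It was then higher in WT (1.31 ± 0.12, adjusted p = 1.7e-11) and FE255del (1.66 ± 0.12, adjusted p = 4.4e-14) and lower in R219S (-3.07 ± 0.16, adjusted p = 1.9e-17).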

How the data were processed

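RNA from 36 organoid libraries was counted per gene; the values are expected counts as deposited by the authors, in 45232 rows named by Ensembl identifiers, of which 44585 matched a symbol. They were whole within 3.0e-09 and were rounded. Per the submitters' processing notes, STAR 2.4.2a, featureCounts 1.4.3 and mm10 were used, and per the labels' protocols libraries came from polyA RNA with a TruSeq Stranded mRNA kit. The annotation release and the strand setting are not given in the sources used here. Of the values from 1 to 20, 69.7% were even, as when both reads of a pair are counted, so floors from counts are too narrow and cover counting error only.

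Groups came from the labels. Counts were scaled by TMM, filtered by filterByExpr over 12 groups (18176 genes kept) and fitted once over all 36 libraries with edgeR 4.0.16 (R 4.3.3, quasi-likelihood test, two-sided, robust); each comparison had its own Benjamini-Hochberg adjustment over all genes kept, and an adjusted p under 0.05 was a call. Fold changes are unshrunk log2 values, and the standard error is the fold change divided by the square root of F. The 23 comparisons set out in the design were joined by 3, chosen after seeing the data, of the day 11 difference from EV beside that of day 1. The members and gene lists were chosen with earlier results of these data known. Every Hox gene is counted; those with a mean of at least 1 CPM are given in full, except results for some genes that are not reported here, and of the other lists at most the 4 genes of smallest p per comparison, with stated exceptions.

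On data simulated for WT against EV on day 1 (17082 genes), the fit recovered 48% of 50 genes changed 1.25-fold, 94% at 1.5-fold, 96% at 2-fold and 100% at 4-fold. The simulation gave every gene the same dispersion and changed only these genes, in the WT day 1 group. In the data 10994 of 18176 genes were called in this comparison and genes differ in spread. The rates are therefore not the power of the reported tests. Exon lengths for CPM per kb and overlaps came from GENCODE M21 (GRCm38), which may differ from the annotation used for counting. Alternatives were RLE and total-count scaling, no or a stricter filter, DESeq2 1.42.0, a fit of only the compared groups, a replicate block and leaving out each library.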

Additional observations from a re-analysis of the deposited data

Results flagged for a closer look

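The differences of the constructs from EV were not the same on day 1 and day 11. Each Hox gene below passed an edgeR quasi-likelihood test of the day 11 difference against the day 1 difference, a comparison chosen after seeing the data; values are log2 with the standard error, and 44.5% (WT), 34.6% (FE255del) and 29.4% (R219S) of all genes passed the same test. Of 27 tested Hox genes, 10 passed in WT, 9 in FE255del and 7 in R219S.

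In WT, 9 genes had a lower difference on day 11 than on day 1: Hoxa2 (-1.04 ± 0.36, adjusted p = 0.019), Hoxa3 (-0.78 ± 0.16, adjusted p = 0.0001), Hoxa5 (-0.54 ± 0.16, adjusted p = 0.0054), Hoxa7 (-0.79 ± 0.09, adjusted p = 2.8e-09), Hoxa11 (-0.77 ± 0.08, adjusted p = 7.3e-10), Hoxb3 (-0.53 ± 0.15, adjusted p = 0.0047), Hoxb7 (-0.21 ± 0.07, adjusted p = 0.018), Hoxb9 (-0.28 ± 0.10, adjusted p = 0.029) and Hoxd8 (-0.80 ± 0.07, adjusted p = 5.8e-12). Hoxa2, Hoxa3, Hoxa5, Hoxa7, Hoxa11, Hoxb3 and Hoxd8 had been called higher than in EV on day 1, and of these Hoxa5 and Hoxa11 were still called higher on day 11, while Hoxb7 and Hoxb9 had not been called on day 1 and were called lower on day 11. Hoxb9 had also been called lower in WT on day 0, at 22.2 CPM against 26.3 in EV. Hoxd13 had a higher difference (0.24 ± 0.05, adjusted p = 0.00012) and was closer to EV on day 11.

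In FE255del, 4 genes had a lower difference on day 11: Hoxa7 (-0.33 ± 0.09, adjusted p = 0.0032), Hoxb7 (-0.38 ± 0.07, adjusted p = 9.3e-05), Hoxb9 (-0.66 ± 0.11, adjusted p = 5.2e-06) and Hoxd8 (-0.23 ± 0.07, adjusted p = 0.0068). The genes with a higher one were Hoxa9 (0.21 ± 0.08, adjusted p = 0.037), Hoxa10 (0.44 ± 0.06, adjusted p = 2.9e-07), Hoxa13 (0.47 ± 0.08, adjusted p = 4.5e-06), Hoxd11 (0.32 ± 0.11, adjusted p = 0.028) and Hoxd13 (0.21 ± 0.05, adjusted p = 0.00088), all called lower than in EV on day 1. On day 11 Hoxa10 and Hoxa13 were no longer called.

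In R219S, 3 genes had a lower difference on day 11: Hoxa7 (-0.30 ± 0.09, adjusted p = 0.0073), Hoxb7 (-0.35 ± 0.07, adjusted p = 0.00024) and Hoxb9 (-0.34 ± 0.10, adjusted p = 0.0098). The genes with a higher one were Hoxa10 (0.26 ± 0.06, adjusted p = 0.00082), Hoxa13 (0.44 ± 0.08, adjusted p = 1.8e-05), Hoxd8 (0.22 ± 0.07, adjusted p = 0.013) and Hoxd13 (0.16 ± 0.05, adjusted p = 0.015). Of these, Hoxd8 was the 1 gene whose excess over EV was larger on day 11. Hoxa7, Hoxb7 and Hoxb9, each lower, and Hoxd13, higher, passed with the same direction in all 3 constructs, which share their EV libraries.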

How the results depend on the processing

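No Hox call or count changed direction under any alternative. Counts of called Hox genes moved by over 1.5 times with only the compared groups in the fit (WT against EV on day 0, 11 in place of 7; R219S against EV on day 11, 2 in place of 4; FE255del against WT on day 11, 1 in place of 3) and with DESeq2 (FE255del against WT on day 11, 5). Leaving out single libraries gave ranges of 3 to 7 for WT, 2 to 4 for FE255del and 5 to 9 for R219S against EV on day 0, 12 to 15, 11 to 12 and 11 to 12 on day 1, and 8 to 10, 9 to 10 and 2 to 5 on day 11. Against WT, FE255del gave 3 to 6, 13 to 17 and 1 to 6 and R219S 9 to 16, 15 to 16 and 11 to 14 on days 0, 1 and 11; EV day 11 against day 0 gave 7 to 10. The cause was not tested. Over single genes and comparisons, leaving out a library ended 230 calls and added 67 (5325 kept their side of the threshold), and total-count scaling ended 16 and added 25. Replicate numbers were not seen to pair the samples: in 0 of 17 comparisons did every same-numbered pair correlate above 0.1 (range -0.28 to 0.16). In EV day 1 against EV day 0 each library correlated best with its own number, at 0.025, 0.028 and 0.063. With 3 libraries in a group this check cannot exclude pairing. With the replicate block, counts were 6 for WT against EV and 7 for FE255del against WT on day 0, 17 and 14 for R219S against WT on days 1 and 11, and equal to the main count in the other 13 of these 17. Depth limits Hoxd3, Hoxd4, Hoxb2 and Hoxa4, all under 1 CPM, and the 12 untested genes.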
